A study of Equus caballus with 10 samples.

Results

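The genes described here hold cells out of division or mark cells that have left it for good. Of the 9 genes CDKN1A, CDKN1B, CDKN1C, CDKN2A, CDKN2B, CDKN2C, MDM2, LMNB1 and GDF15, taken by symbol, 8 had a row among the 29196 genes of the table, and CDKN2A, which had no row of that name, was not analysed here. Equine tenocytes, the collagen-producing cells of tendon, came from the superficial digital flexor tendon of 5 horses of differing ages, were passaged, and were kept for 14 days in gels of collagen. All gels received the IRAK-4 inhibitor PF-06650833 (PF) at 100 nM each day. The first group received PF alone and the second, called IL-1β + PF, received IL-1β at 17 ng/ml every 3 to 4 days plus PF, with 5 libraries in each group and 1 library of each donor in both. RNA was taken from whole gels, so each library is an average over the cells of its gels. Gels without PF were not analysed here, so each difference below is that of adding IL-1β in the presence of PF.

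Cyclin-dependent kinases drive a cell from G1 into DNA replication by phosphorylating the retinoblastoma protein, and 2 families of small proteins stop them. The INK4 proteins, which include p15 (CDKN2B) and p18 (CDKN2C), bind CDK4 and CDK6, while the CIP/KIP proteins p21 (CDKN1A), p27 (CDKN1B) and p57 (CDKN1C) bind a wider range of cyclin and kinase complexes. MDM2 is a ubiquitin ligase that marks other proteins for degradation. Loss of the nuclear lamina protein lamin B1 (LMNB1) is a widely used sign of senescence, a lasting arrest in which cells often secrete cytokines and proteases, and GDF15 is a secreted stress factor that the integrated stress response can switch on.

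Of these genes, CDKN2B rose 2.02-fold with IL-1β + PF, in every donor and with no overlap of the groups. CDKN1A was higher in 4 of 5 donors but not in donor 3, whose gels with PF alone already had the highest level. CDKN1C and CDKN2C varied in direction between donors, LMNB1 differed far more between horses than between treatments, and CDKN1B and MDM2 showed small differences that did not pass the test. GDF15 did not pass either, and it was too close to the limit of detection for the size of its difference to be read. Levels are the deposited log2 values, on which 1 unit is a doubling for well expressed genes and 3.433 stands for no reads. A gene passed the test at an adjusted p below 0.05 (limma, Benjamini-Hochberg adjustment over all 17992 tested genes), and was called differentially expressed if its absolute log2 fold change was also at least 1. All 8 genes were above the value of no reads in at least 5 libraries and were tested. By both criteria 1 of the 8 genes was differentially expressed, CDKN2B, which was higher with IL-1β + PF, against 6.68% of all tested genes (3.11% higher and 3.57% lower). By the adjusted p alone 1 of 8 passed, against 15.5% (7.57% higher and 7.89% lower). With the donor as a block (replicate block) 2 of 8 passed by the adjusted p alone, both higher, against 22.2% of all tested genes (10.9% higher and 11.3% lower), and 1 of 8 with the minimum fold change, against 8.26% (4.01% higher and 4.25% lower). The 8 genes had a median log2 fold change of 0.16, against -0.01 for all tested genes.

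**Figure D1:**
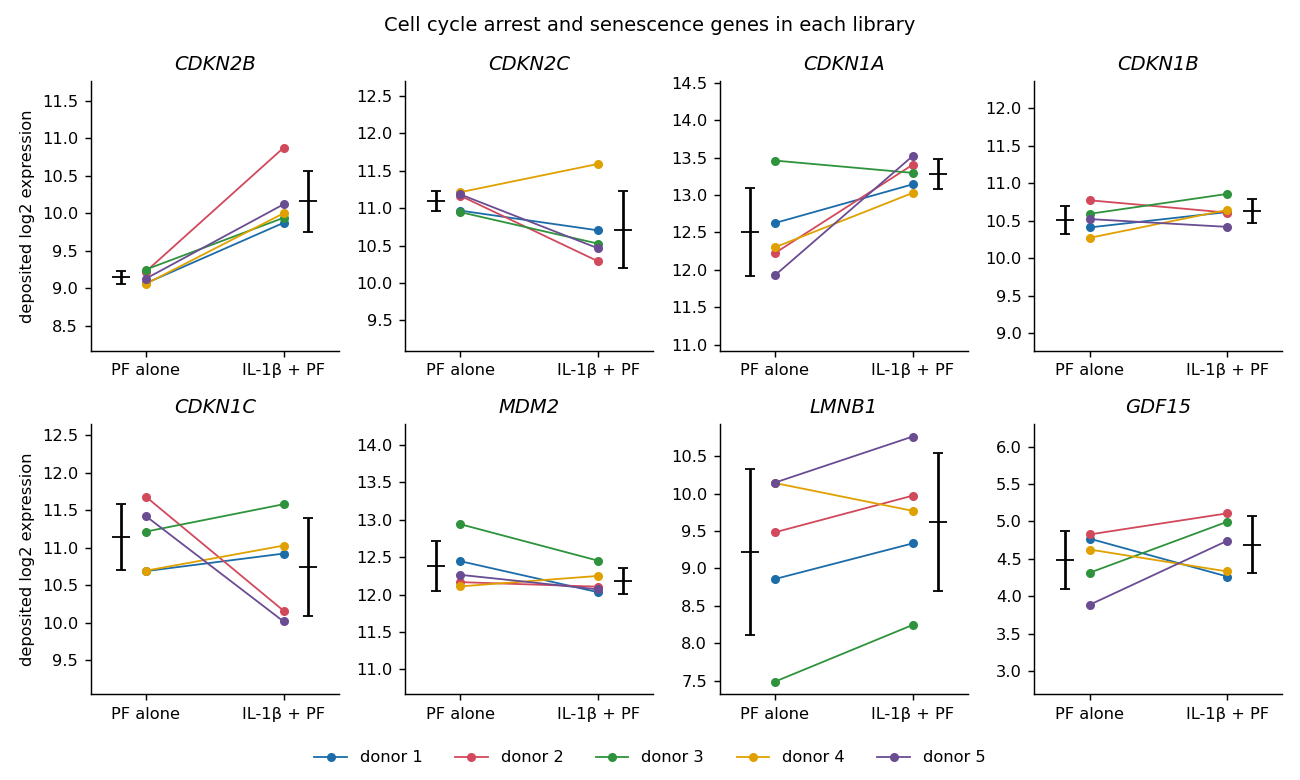
Deposited log2 expression (vertical axis, each panel spanning the same range of log2 units) of the 8 genes with PF alone and with IL-1β + PF; each line joins the libraries of 1 of the 5 donors, and the black marks are group means with SD. The CDKN2B lines all climb, from 9.06 to 9.25 with PF alone to 9.87 to 10.87, whereas those of CDKN1C cross, and in LMNB1 donor 3 stays lowest and donor 5 highest while donors 2 and 4 swap places.

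CDKN2B encodes p15, an inhibitor of CDK4 and CDK6 known as a target of TGF-β signalling. With PF alone its log2 level was 9.06, 9.22, 9.25, 9.06 and 9.13 in donors 1 to 5. The values with IL-1β + PF were 9.87, 10.87, 9.94, 10.00 and 10.12. All 5 libraries with PF alone thus lay below all 5 libraries with IL-1β + PF. Such a lack of overlap was found for 12.7% of all tested genes (6.29% higher and 6.41% lower). CDKN2B was higher in all 5 donors, as were 16% of all tested genes, while 16.8% were lower in all 5. The mean rose from 9.14 ± 0.09 to 10.16 ± 0.41 (SD, n = 5 each), a log2 fold change of 1.02 (SE 0.18, limma adjusted p = 0.00358) or a 2.02-fold rise with a 95% confidence interval of 1.55 to 2.65. The spread with PF alone was the smallest of any of the 8 genes, and it was larger with IL-1β + PF, where donor 2 differed most, by 1.65 against 0.69 to 0.99 in the other donors. As normalised counts, donor 2 went from 575 to 1855 and donor 1 from 514 to 915. Without the library of donor 2 with IL-1β + PF the log2 fold change was 0.84 (limma adjusted p = 0.00156), and without both libraries of donor 2 it was 0.86 (limma adjusted p = 0.00456), so that CDKN2B passed the test but not the minimum fold change. It also fell just under that minimum without the PF alone library of donor 1 (log2 fold change 0.998) or of donor 4 (0.996), and in each of these fits none of the 8 genes was differentially expressed (0 of 8). CDKN2B resembles CDKN2A in sequence, so the share of its reads that comes from each is less certain. In bulk RNA a change in the number of cells that express a gene and a change in RNA per cell cannot be told apart, here or below.

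CDKN2C encodes p18, the other INK4 protein measured. Its log2 level with PF alone was 10.97, 11.16, 10.95, 11.21 and 11.18 in donors 1 to 5. In the same order, IL-1β + PF gave 10.70, 10.29, 10.53, 11.59 and 10.46. It was lower in donors 1, 2, 3 and 5 and higher in donor 4, whose library was the highest of all 10, so the groups overlapped through that library. The log2 fold change was -0.38 (95% confidence interval -0.84 to 0.08, limma adjusted p = 0.255) and did not pass the test. Without the IL-1β + PF library of donor 4 it was -0.60 (limma adjusted p = 0.00448), and without both libraries of donor 4 it was -0.57 (limma adjusted p = 0.0121). In donors 1, 2, 3 and 5, CDKN2B was higher and CDKN2C lower.

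CDKN1A encodes p21, a CIP/KIP inhibitor that many kinds of stress induce. Its log2 level with PF alone was 12.63, 12.23, 13.46, 12.30 and 11.93 in donors 1 to 5. Adding IL-1β gave 13.14, 13.40, 13.30, 13.03 and 13.52. The libraries with IL-1β + PF lay close together whatever the level the donor had with PF alone, and the groups overlapped only through donor 3 with PF alone. Between donors, normalised counts spanned 2.90-fold with PF alone and 1.41-fold with IL-1β + PF. The mean was 12.51 ± 0.59 (SD, n = 5) with PF alone and 13.28 ± 0.20 (SD, n = 5) with IL-1β + PF. The log2 fold change of 0.77 (SE 0.24) narrowly missed the threshold without a donor term (limma adjusted p = 0.0551) and passed it with the replicate block (limma adjusted p = 0.0464). Donor 5, the lowest with PF alone, differed most, at 3.03 times the normalised count with PF alone, followed by donor 2 at 2.27-fold, donor 4 at 1.66-fold and donor 1 at 1.43-fold. Donor 3 had 0.892-fold the normalised counts. Without the PF alone library of donor 3 the log2 fold change was 1.01 (limma adjusted p = 0.00249), and without both libraries of donor 3 it was 1.00 (limma adjusted p = 0.00542), so that 2 of the 8 genes were then differentially expressed.

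CDKN1B encodes p27, whose amount in cells is set largely by protein breakdown rather than transcription. Its log2 level with PF alone was 10.41, 10.77, 10.59, 10.27 and 10.52 in donors 1 to 5. They became 10.62, 10.61, 10.86, 10.64 and 10.42 with IL-1β + PF. The groups overlapped and 3 of 5 donors were higher. The log2 fold change was 0.12 (limma adjusted p = 0.550), and its 95% confidence interval of -0.13 to 0.36 was the narrowest of the 8 genes.

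CDKN1C encodes p57, an imprinted CIP/KIP inhibitor that is common in resting and differentiated cells. Its log2 level with PF alone was 10.69, 11.68, 11.21, 10.69 and 11.42 in donors 1 to 5. The values with IL-1β + PF were 10.92, 10.16, 11.58, 11.03 and 10.01. Donors 2 and 5, the highest with PF alone, became the lowest with IL-1β + PF, at 0.344-fold and 0.372-fold the normalised counts, while donors 1, 3 and 4 differed by 0.23 to 0.37 log2 units in the other direction. The mean log2 fold change of -0.40 did not pass the test (95% confidence interval -1.07 to 0.27, limma adjusted p = 0.425, and 0.415 with the replicate block). Donors 2 and 5 were also those with the largest difference in CDKN1A (1.18 and 1.59 log2 units), in CDKN2B (1.65 and 0.99) and, in the negative direction, in CDKN2C (-0.88 and -0.72). They were the donors with a lower CDKN1B as well (-0.16 and -0.10). For CDKN2B, donor 4 (0.94) was close to donor 5. MDM2, LMNB1 and GDF15 did not follow the split. MDM2 differed most in donors 1 and 3 (-0.41 and -0.49), against -0.06 and -0.19 in donors 2 and 5. LMNB1 differed most in donor 3 (0.76), and for GDF15 donor 3 (0.68) exceeded donor 2 (0.28). Donors 2 and 5 were picked out after their values were seen, and the split carries no test.

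**Figure D2:**
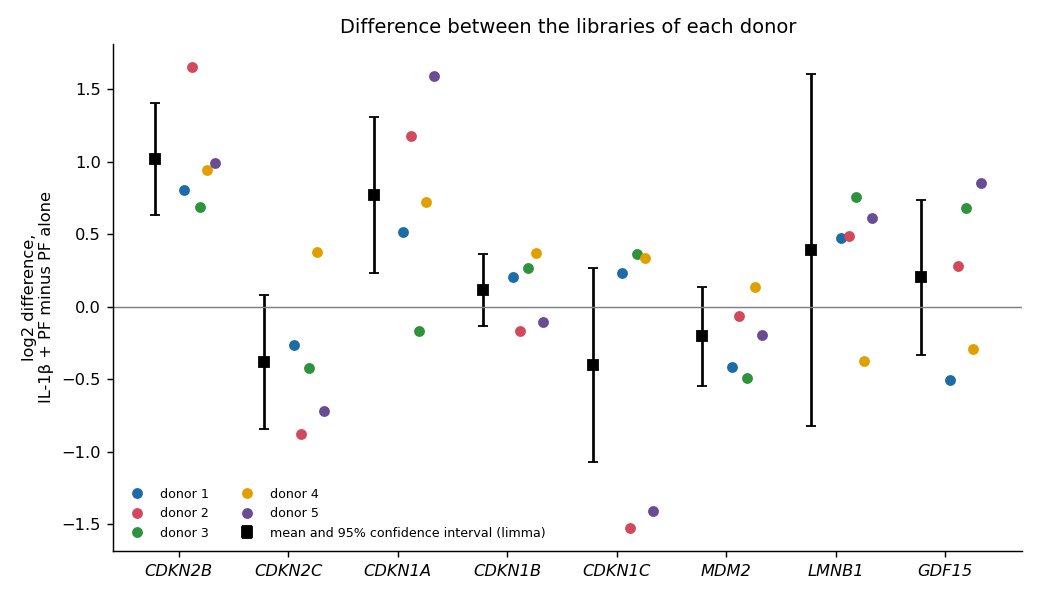
Log2 difference (vertical axis) between the IL-1β + PF and the PF alone library of each donor (coloured points) for the 8 genes, with the mean difference and its 95% confidence interval from limma without a donor term (black squares and bars). The 5 CDKN2B points lie between 0.69 and 1.65, and CDKN1C has 2 points below -1.40 and 3 between 0.23 and 0.37.

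MDM2 encodes a ubiquitin ligase. Its log2 level with PF alone was 12.44, 12.17, 12.94, 12.11 and 12.26 in donors 1 to 5. In the same order, IL-1β + PF gave 12.03, 12.10, 12.45, 12.25 and 12.07. It was lower in 4 of 5 donors, and the groups overlapped. The log2 fold change was -0.20 (95% confidence interval -0.55 to 0.14, limma adjusted p = 0.428). With PF alone, donor 3 had the highest MDM2 as it had the highest CDKN1A. With IL-1β + PF, CDKN1A was higher and MDM2 lower in donors 1, 2 and 5, both were lower in donor 3, and both were higher in donor 4.

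LMNB1 encodes lamin B1. Its log2 level with PF alone was 8.86, 9.48, 7.49, 10.14 and 10.15 in donors 1 to 5. Adding IL-1β gave 9.33, 9.97, 8.25, 9.77 and 10.76. Donor 3 was the lowest and donor 5 the highest in both groups, and the normalised counts spanned 7.0-fold between donors with PF alone and 6.07-fold with IL-1β + PF. LMNB1 was higher with IL-1β + PF in 4 of 5 donors, with a log2 fold change of 0.39 that did not pass the test (95% confidence interval -0.82 to 1.61, limma adjusted p = 0.693). With the replicate block the interval was 0.01 to 0.78 (limma adjusted p = 0.131), and without the PF alone library of donor 3 the log2 fold change was -0.040 (limma adjusted p = 0.968). With the block and without donor 4, a fit chosen after seeing the data, it was 0.58 (limma adjusted p = 0.0120). Of the 10 values of LMNB1, 91.1% of the sum of squares lay between donors and 4.44% between treatments.

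GDF15 encodes a secreted member of the TGF-β superfamily. It was close to the limit of detection, with 9, 8, 3, 7 and 1 estimated reads in donors 1 to 5 with PF alone and 3, 14, 12, 3 and 8 with IL-1β + PF. Its log2 levels overlapped, at 3.89 to 4.83 and at 4.26 to 5.11, and 3 of 5 donors were higher. The log2 fold change was 0.20 (95% confidence interval -0.33 to 0.74, limma adjusted p = 0.635) and did not pass the test. The deposited scale compresses differences between such low values, and on back-transformed log2(normalised count + pseudocount) values the log2 fold change was 0.49 with a pseudocount of 1 and 0.55 with a pseudocount of 0.5, neither of which passed the test.

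Over the 10 libraries, the treatment took 78.7% of the sum of squares of CDKN2B and 49.1% of that of CDKN1A, against a median of 19.1% over all tested genes. It took 24.5% for CDKN2C, 15.4% for MDM2, 13.9% for CDKN1C, 12.1% for CDKN1B, 8.07% for GDF15 and 4.44% for LMNB1. The donor took 65.0% for MDM2 and 91.1% for LMNB1, against a median of 45.9% over all tested genes. For CDKN1C most of the variation, 66.4%, lay in neither, which is the crossing of donors described above.

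**Figure D3:**
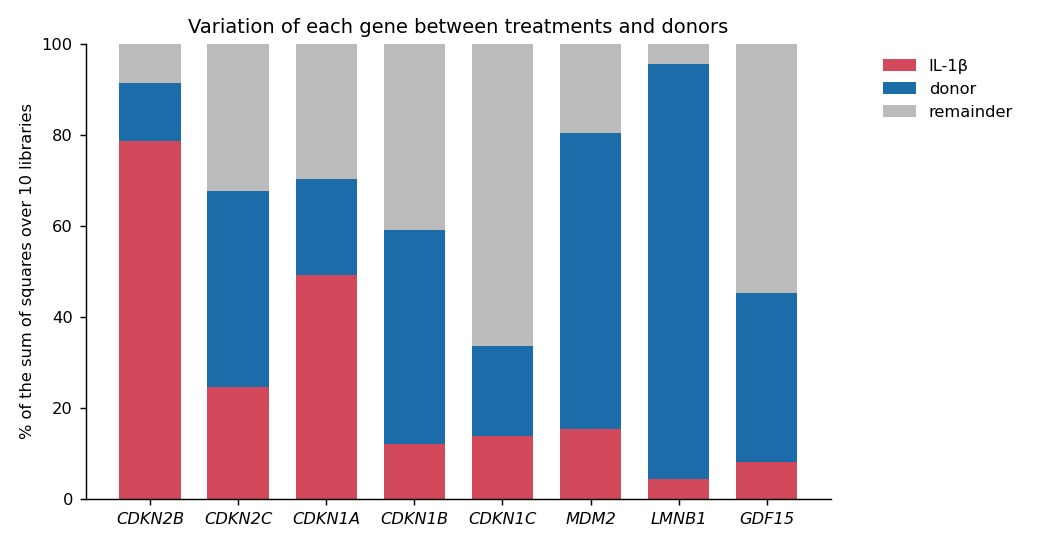
Share of the sum of squares over the 10 libraries (stacked bars, vertical axis in percent) that lay between the treatments (IL-1β), between the 5 donors and in the remainder, for each of the 8 genes. CDKN2B is mostly treatment (78.7%), LMNB1 mostly donor (91.1%) and CDKN1C mostly remainder (66.4%).

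The genes whose log2 values followed CDKN2B most closely over the 10 libraries were ACVR1C (Pearson r = 0.974), REL (0.972) and SLC25A18 (0.969). REL encodes a subunit of NF-κB and rose from 9.41 ± 0.14 to 10.36 ± 0.41 (SD, n = 5 each) on the log2 scale (limma adjusted p = 0.00543), with 463 to 666 estimated reads in the PF alone libraries. ACVR1C, an activin-type receptor of the TGF-β superfamily, and SLC25A18, a mitochondrial carrier, had 0 estimated reads in all libraries with PF alone and 1 to 5 and 1 to 4 with IL-1β + PF. Both were thus tested only through their IL-1β + PF libraries, and their coefficients rest on the split between the groups and on a few reads. The genes most like CDKN1A were SEC63 (r = 0.972), ENTPD5 (0.95) and HGS (0.948), with log2 fold changes of 0.26, 0.20 and 0.27, none of which passed the test. The libraries share donors and treatments, so these coefficients describe the 10 libraries and carry no test.

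The inhibitors act on cyclins and their kinases, and of 24 tested genes of G1-S control 0 were differentially expressed, 2 rose at any fold by limma and 8 had an unadjusted p below 0.05. The 15.5% of all tested genes that passed the adjusted p also lie below that unadjusted p. The full share at the unadjusted p is not given, so such counts stand without their background, here and for the lists below. CCND3, the gene of cyclin D3 and a partner of CDK4 and CDK6, rose from 11.27 ± 0.32 to 11.93 ± 0.28 (SD, n = 5 each), a log2 fold change of 0.66 (limma adjusted p = 0.0262). CCNE1, the gene of cyclin E1, had a log2 fold change of 0.89 (limma adjusted p = 0.0412). With the replicate block 2 were differentially expressed and 8 passed at any fold, 7 of them higher. These 2 were E2F1 (log2 fold change 1.06), a transcription factor that drives S phase genes, and CDC25B (1.31), a phosphatase that activates cyclin-dependent kinases. The median log2 fold change of the list was 0.28. CCND3 passed the test in 7 of 15 fits without a library or a donor.

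Of 20 tested proliferation markers, 0 were differentially expressed and 0 passed at any fold by limma without a donor term, with 0 at an unadjusted p below 0.05, while all 20 had a positive log2 fold change and their median was 0.55. With the replicate block 4 passed, RRM2 (log2 fold change 1.14), AURKB (1.20), CDK1 (1.11) and PLK1 (0.92). PCNA, the replication clamp and the marker with the smallest p, had a log2 fold change of 0.31 (limma adjusted p = 0.338). The mean log2 level of the 20 markers with PF alone was 9.69, 9.19, 7.67, 10.51 and 10.62 in donors 1 to 5, and with IL-1β + PF it was 9.86, 10.48, 8.55, 10.31 and 11.24. Donor 3 was the lowest and donor 5 the highest in both groups, as for LMNB1, and donor 4, the only donor with less LMNB1, was the only one with a lower mean. The higher CDKN2B with IL-1β + PF was thus measured in the same libraries as a mean of these markers that was higher in 4 of 5 donors, and the part of dividing cells in the values of the 8 genes was not tested.

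Of 14 tested genes of the integrated stress response, an input of GDF15, 4 were differentially expressed, each lower under IL-1β + PF, and 8 fell at any fold. ASNS, the asparagine synthetase gene, fell by 1.92 on the log2 scale, CHAC1, which degrades glutathione, by 2.14, and TRIB3, a pseudokinase gene, by 1.61, each lower in 5 of 5 donors with adjusted p-values from limma of 6.44e-04, 9.72e-04 and 0.00311. The median log2 fold change of the list was -0.64, while GDF15 was at 3 to 14 estimated reads in the same IL-1β + PF libraries.

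Of 18 tested genes known to act at the CDKN2A-CDKN2B locus, 3 were differentially expressed, all higher, and 7 passed at any fold, 6 higher and 1 lower. TBX3 and TBX2, T-box factors known as repressors of this locus, had log2 fold changes of 1.74 (limma adjusted p = 3.98e-04) and 1.03 (limma adjusted p = 0.0319), and ID3, an inhibitor of helix-loop-helix factors, of 1.08 (limma adjusted p = 0.00437). TBX2 passed the test in 6 of 15 fits without a library or a donor. Of 16 tested regulators of the CIP/KIP genes, 1 was differentially expressed and higher, the MYC antagonist MXD1 (log2 fold change 1.24, limma adjusted p = 0.00114), and 1 lower, KLF4, an activator of CDKN1A in many cells (-1.05, limma adjusted p = 0.00487). At any fold 4 passed, 1 higher and 3 lower, the lower ones including FOXO1 (-0.51, limma adjusted p = 0.0468).

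Beside LMNB1, 0 of 16 tested genes of the nuclear lamina and its partners were differentially expressed, 2 passed at any fold by limma and 6 had an unadjusted p below 0.05. SUN1, which anchors the nucleus to the cytoskeleton, fell by 0.90 on the log2 scale (limma adjusted p = 0.00358, lower in 5 of 5 donors), and TOR1A, a nuclear envelope ATPase gene, rose (log2 fold change 0.35). With the replicate block 1 was differentially expressed, SYNE2 (log2 fold change -1.05), and 4 passed at any fold. LMNB2, the gene of the other B-type lamin, had a log2 fold change of -0.03, and LMNA of -0.40 (limma adjusted p = 0.0646 and 0.0344 with the replicate block).

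Of 24 tested secreted factors usually listed for senescent cells, 16 were differentially expressed, of which IL-1β + PF raised 15 and lowered 1, and the median log2 fold change was 2.12. IL1A, among those raised, was at the value of no reads in every library with PF alone. It was thus tested only through its IL-1β + PF libraries, and its call rests on the split between the groups. The chemokine genes CXCL2 and CXCL1 rose by 6.83 and 6.29 on the log2 scale and IL6 by 8.79, each in 5 of 5 donors, with adjusted p-values from limma of 4.64e-06, 1.78e-05 and 1.07e-04. Reads of CXCL1 and CXCL2, which resemble each other, may be split between them. Many genes of this list are also known targets of IL-1 in cells that are not senescent.

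**Figure D4:**
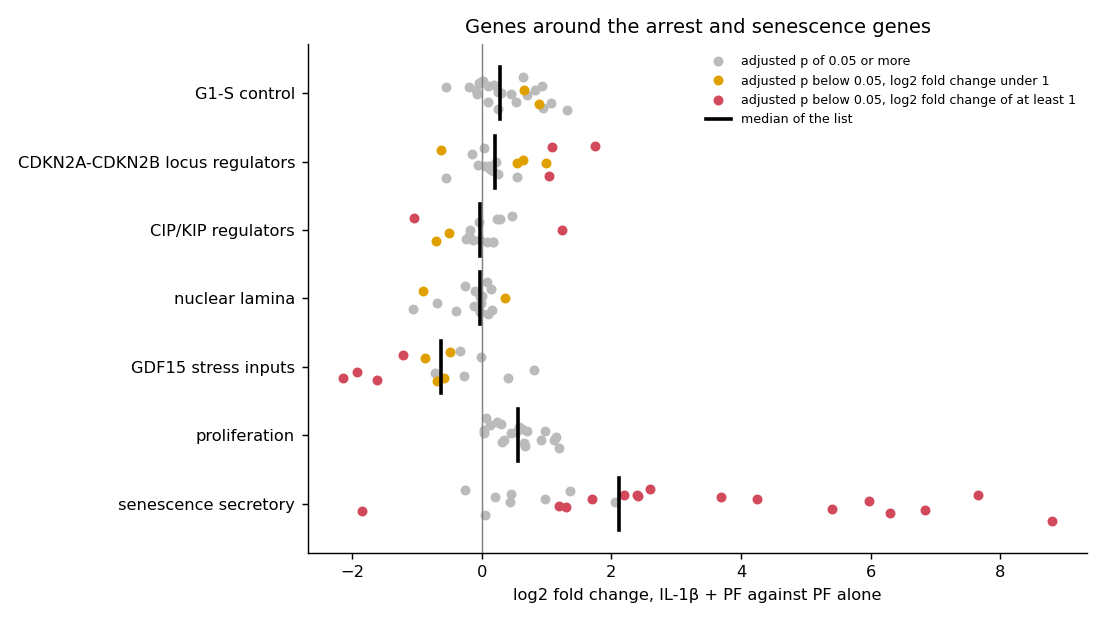
Log2 fold change with IL-1β + PF against PF alone (horizontal axis) of the tested genes of 7 lists around the arrest and senescence genes (rows); each point is a gene, coloured by whether it passed the test, and black bars are list medians. The secretory list has a median of 2.12 and the stress inputs of GDF15 one of -0.64, while the other medians lie between -0.03 and 0.55.

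Reads on genes, estimated from the spacing of the lowest values, numbered 26672336 to 36093461 per library. Of 10 tested tenocyte markers 4 were differentially expressed, each lower under IL-1β + PF, among them SCX (log2 fold change -3.24), MKX (-2.85) and COMP (-3.63), and 6 passed with the replicate block. Of the 10, 9 had a negative log2 fold change and 1, DCN, a positive one. DCN was higher in 5 of 5 donors but did not pass (1.01, limma adjusted p = 0.268, and 0.0529 with the replicate block). The summed normalised count of the list was 980645 to 1597470 with PF alone and 280663 to 1090450 with IL-1β + PF. TNMD was at the value of no reads in all libraries. Of 8 leukocyte markers 5 were tested and CD68 rose (log2 fold change 1.70, passing in 14 of 15 fits without a library or a donor, against 13 of 15 for COMP and CDH1), with sums of 222 to 1978 and 345 to 2149. Of these 5 leukocyte markers, 4 had a positive and 1 a negative log2 fold change. CD14 had the largest (2.66) but did not pass (limma adjusted p = 0.340, and 0.106 with the replicate block). Its donor differences ran from 0 in donor 3 to 5.32 in donor 4 and 6.84 in donor 5. CD3E had no reads in any library, and PTPRC and CSF1R were too low to be tested. Of 7 endothelial markers 5 were tested and 0 passed by limma with and without the replicate block, with 2 at an unadjusted p below 0.05. The smaller p was that of TEK (limma unadjusted p = 0.0301), which was higher with IL-1β + PF (log2 fold change 0.36 to 0.67 over the fits without a library or a donor). Of the 5 tested, 2 had a positive and 3 a negative log2 fold change, with sums of 16.3 to 50.4 and 5.12 to 30.7. Of 7 muscle markers 5 were tested and DES fell (log2 fold change -2.98; ACTA2, at -1.01, also passed with the replicate block), with sums of 27256 to 197669 and 37229 to 81724, and MYOD1 and MYOG had no reads. Of 6 epithelial markers 3 were tested and CDH1 fell (log2 fold change -2.22; CLDN4, at 0.75, also passed with the replicate block), with sums of 553 to 1589 and 146 to 474, and EPCAM and KRT5 had no reads. The part of these markers in the values of the 8 genes was not tested.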

How the data were processed

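RNA of 10 libraries (5 donors, 2 treatments) was sequenced. According to the labels and the methods of the study, the authors ran FastQC (version 0.11.9), assigned reads to the EquCab3.0 transcriptome with Salmon (version 1.8), summed them to genes and used DESeq2 (version 1.36). The authors deposited log2 values normalised between libraries. Their transformation is not named and was recognised as variance stabilisation from a shared lowest value of 3.433, which was inverted to give normalised counts and, from the spacing of low values, estimated reads. Between 70.0% and 86.0% of low values lay within 0.15 of a whole read.

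The tests used limma (version 3.58.1, under R version 4.3.3) with its trend option and no donor term, as the study names none. A gene entered if it exceeded the lowest value in 5 or more libraries, and p-values were adjusted by the Benjamini-Hochberg method. The thresholds are those of the study. The replicate number stands for the donor named in the sample titles. The 2 libraries of a donor shared their deviations from the group means (correlations across genes of 0.367 to 0.506 in 5 pairs). The fit was tested on simulated counts that held no donor effect, so that test does not cover the sharing of donors between the groups. The 8 genes and all lists were chosen with earlier results of these data known. Named were these genes, from each list up to 3 differentially expressed genes with the smallest adjusted p or else the gene with the smallest p, and the genes most like CDKN2B and CDKN1A. A further gene list is not reported here. Other genes were named after their values were seen. Alternatives were another scale, filter, threshold, variance model or normalisation, the replicate block, and fits without 1 library or 1 donor, some of them with the block and chosen after seeing the data.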

Additional observations from a re-analysis of the deposited data

Results flagged for a closer look

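In groups of 5 libraries of the 8 genes and the other genes named by rule, a library stood far from the rest of its group in 7 of 60 groups, where chance gives about 3, or 1 in 20. Among the 16 groups of the 8 genes there was 1. CDKN2B was at 10.87 in donor 2 with IL-1β + PF, against 9.87 to 10.12 in the other donors. The library holds 1630 estimated reads of the gene. With IL-1β + PF, CCND3 was at 11.44 in donor 3 against 11.97 to 12.12 in the others, and TRIB3 was at 9.63 in donor 5 against 8.76 to 8.92. With PF alone, MXD1 was at 9.37 in donor 3 against 8.58 to 8.80, SUN1 at 12.45 in donor 2 against 11.85 to 12.01, and CDH1 at 10.64 in donor 4 against 9.11 to 9.47. TEK was at 4.22 in donor 1 with PF alone, which is 3 estimated reads, and at the value of no reads in the other donors.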

How the results depend on the processing

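The direction of the 30 genes named by rule held in every alternative run but 1, LMNB1, which was at -0.040 without the PF alone library of donor 3 and at -0.040 to 0.74 over the fits without a library or a donor. With the replicate block 2 of the 8 genes passed at any fold, in place of 1, and the block changed no other call among the 8 genes. On back-transformed log2(normalised count + 1) values with the replicate block 2 passed as well, and 1809 of all genes were differentially expressed (891 higher), in place of 1202 (560 higher). At an adjusted p below 0.01 there were 719 (345 higher, 374 lower), and 1144 at any fold (544 higher, 600 lower), in place of 2782. Without the minimum fold change the count over all genes was 2782, and 42 of 160 list genes passed in place of 26. Over the 15 fits without a library or a donor, 0 to 2 of the 8 genes were differentially expressed and 1 to 2 passed at any fold. Over all genes these fits gave 747 to 1410 (344 to 636 higher, 388 to 774 lower), and 1244 to 3252 at any fold (576 to 1617 higher, 644 to 1635 lower), and 16 to 27 list genes. CDKN2B passed in all 15 fits at any fold and in 11 with the minimum fold change, with log2 fold changes of 0.84 to 1.10. CDKN1A passed in 2, both without the PF alone library of donor 3. The cause was tested for none of these changes. GDF15 had 1 to 14 estimated reads per library, and its log2 fold change was 0.49 or 0.55 on the back-transformed scale in place of 0.20.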

Other observations

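The genes next to the 8 genes on the chromosomes were read after the data were seen, with gene order taken from the RefSeq annotation of another horse assembly. Of 16 nearest protein-coding neighbours 12 could be tested and 2 passed the test, a share close to the 15.5% of all tested genes. CPM, which lies beside MDM2 and encodes carboxypeptidase M, rose from 7.97 ± 1.35 to 11.75 ± 0.88 (SD, n = 5 each) on the log2 scale (log2 fold change 3.77, limma adjusted p = 0.00263), in 5 of 5 donors, while MDM2 had a log2 fold change of -0.20. FAF1, beside CDKN2C, fell by 0.48 in log2 units (limma adjusted p = 0.00382), in 5 of 5 donors. LOC100146270, beside CDKN2B, is a locus that carries no gene name in the table and was not identified here, so whether it bears on CDKN2A is not known. It was at 7.86 ± 0.25 (SD, n = 5) and 8.67 ± 0.61 (SD, n = 5), a log2 fold change of 0.81 (limma adjusted p = 0.0685) with 4 of 5 donors higher, and DMRTA1 on the other side was too low to be tested.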
